A study of Mus musculus with 8 samples.

Results

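The genes described here are 10 enzymes and regulators of fatty acid synthesis and desaturation, and the data are the positions of open chromatin at them in mouse mammary tumor cells. The genes were taken as a named set: Acly, Acaca and Fasn, which make palmitate, Elovl6, which lengthens it, Scd1, Scd2, Fads1, Fads2 and Fads3, which are members of the desaturase families, and Srebf1, which encodes the transcription factor SREBP1. ATAC-seq marks open chromatin as peaks, places where the transposase Tn5 inserted often. A peak was assigned to a gene when it overlapped the gene body or lay within 5 kb of one of its GENCODE M21 transcription start sites (TSSs). All 10 genes had peaks, among 17758 protein-coding genes with at least 1 peak so assigned. The peaks of the 8 libraries merged into 183173 regions, of which 84 were at the 10 genes.

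The cells were cultured tumor cells from MMTV-PyMT mice, in which the MMTV promoter drives the polyoma middle T oncogene in mammary epithelium, of the strain given as FBV/N. All libraries, controls included, carried this oncogene. WT cells and Lats1-CKO cells, in which the gene for the Hippo pathway kinase LATS1 was deleted conditionally, were sorted by EpCAM and CD49f into luminal (EpCAM-high) and basal-like (EpCAM-low) cells and were expanded in culture before use. The driver of the Cre recombinase is not given in the sources used here. The 2 libraries of each group are named BM1 and BM5 (WT luminal), BM3 and BM7 (Lats1-CKO luminal), BM2 and BM6 (WT basal-like), and, for Lats1-CKO basal-like, BM4 and BM8, and age and treatment are not given for them. The study calls the libraries of a group biological replicates, and nothing in the labels says whether they came from separate tumors or cultures, so p-values measure the spread between these libraries alone. The study asked whether loss of Lats1 opens chromatin that luminal cells normally keep closed, and the comparison here asks it of the genes of fatty acid synthesis.

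Fatty acid synthesis starts from citrate. Acly splits it into acetyl-CoA, Acaca turns acetyl-CoA into malonyl-CoA in the committed step, and Fasn condenses these units into palmitate. Scd1 and Scd2 place the first double bond into long saturated chains, and Fads2 and Fads1 act in turn on dietary fatty acids to make the long polyunsaturated ones. The lactating mammary gland and many tumors use the pathway heavily, and SREBP1 is known to switch on most of its genes, often together with the CCAAT-binding factor NF-Y.

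The libraries differed in what they could show. The 4 WT lists held 51497 to 72685 peaks, BM4, BM7 and BM8 held 86279 to 99022, and BM3 held 14753. The peaks of each list carry a score, taken to be that of MACS2, which depends on depth, so it is given here only as a percentile among the peaks of the same library, with 100 for the strongest. This percentile still depends on the length of the list. Read counts are not in the lists, the depth per library is unknown, and an absent peak means that none was called. In BM3, 52.6% of the 17758 genes had a peak, against 81.4% to 90.7% in the other libraries, and the median gene's strongest peak was at percentile 10.6. Among the 14753 top-scoring peaks per library, the other libraries had a peak at 44.4% (BM2) to 51.6% (BM1) of genes, below BM3. The lists do not check the deletion of Lats1, whose region just inside the gene start had a peak in all 4 WT libraries (percentiles 53.6 to 62.4) and in BM4, BM7 and BM8 (74.7 to 81.5), with none in BM3. The sorting marker Epcam had its strongest peak at percentiles 65.0 to 88.0 in the luminal libraries and 2.45 to 66.1 in the basal-like ones, so the populations overlapped by 1 library, BM2.

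5 stretches of sequence were picked as examples of the accessible elements at these genes, and motif counts over all their regions are given below. They are the strongest element of all 10 genes (Elovl6), the Fasn promoter, an upstream element of Scd1, and the intronic elements of Fads1 and Fads2 that were called in Lats1-CKO libraries alone. All are from GRCm38 on the strand of the gene, and the cells' own strain may differ from this reference. Capitals mark CCAAT or its reverse ATTGG, the core bound by NF-Y. In the Elovl6 stretch they also mark GTGGGGTGA, the reverse strand of the sterol regulatory element TCACNCCAC bound by SREBPs, and in the Fasn stretch CCAATTGG holds CCAAT and ATTGG sharing 2 letters.
Elovl6 intron, chr3:129536255-129536454, plus strand: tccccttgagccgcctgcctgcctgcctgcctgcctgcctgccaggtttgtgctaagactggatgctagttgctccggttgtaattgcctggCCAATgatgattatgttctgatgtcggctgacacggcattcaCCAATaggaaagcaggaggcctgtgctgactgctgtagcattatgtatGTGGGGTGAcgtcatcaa
Fasn promoter, chr11:120824548-120824797, minus strand, from RefSeq: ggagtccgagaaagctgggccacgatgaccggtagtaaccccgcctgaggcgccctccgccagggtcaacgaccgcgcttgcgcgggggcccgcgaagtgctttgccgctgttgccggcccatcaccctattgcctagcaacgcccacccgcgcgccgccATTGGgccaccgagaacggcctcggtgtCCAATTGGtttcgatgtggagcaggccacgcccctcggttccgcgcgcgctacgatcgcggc
Scd1 upstream, chr19:44408270-44408469, minus strand: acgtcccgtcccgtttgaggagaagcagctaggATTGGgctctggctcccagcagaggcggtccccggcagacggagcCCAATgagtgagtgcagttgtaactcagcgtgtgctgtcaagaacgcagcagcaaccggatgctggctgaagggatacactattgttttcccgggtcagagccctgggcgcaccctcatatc
Fads1 intron, chr19:10184232-10184431, plus strand: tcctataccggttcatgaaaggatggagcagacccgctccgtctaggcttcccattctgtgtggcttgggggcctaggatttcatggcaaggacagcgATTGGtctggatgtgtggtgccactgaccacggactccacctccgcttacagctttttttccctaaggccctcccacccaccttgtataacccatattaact
Fads2 intron, chr19:10078502-10078701, minus strand: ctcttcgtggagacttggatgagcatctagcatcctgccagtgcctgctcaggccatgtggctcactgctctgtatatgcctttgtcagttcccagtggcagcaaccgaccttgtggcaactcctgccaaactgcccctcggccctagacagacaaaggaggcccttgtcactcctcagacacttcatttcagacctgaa
Each is the central 200 bases around a merged region except the Fasn stretch, which is the 250 bases before its first exon.

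The 10 genes were open in nearly every library. No gene of the set separated the genotypes or the sorted populations, and at most 0.980% of all genes did so in any 1 direction. With the low values of BM3, none of the 10 could be higher in Lats1-CKO. All 10 had at least 1 peak in 7 libraries, and in BM3 Scd1 and Srebf1 had none. Within 1 kb of a TSS, 10 genes had peaks in BM1, BM2, BM4, BM6, BM7 and BM8, 9 in BM5 and 7 in BM3, against 42.4% (BM3) to 72.6% (BM7) of all genes. The strongest peak of the median gene of the set was at percentile 51.8 in BM3 and 84.7 to 94.7 in the other libraries, above the median of all genes in each library (10.6 and 71.9 to 83.9). The genes also held more peaks each, 2.90 to 5.80 outside BM3 against 2.21 to 4.04 over all genes, and their windows are of unequal length, from 18.2 kb at Scd2 to 277 kb at Acaca. Over the 8 libraries together, the number of peaks ranked from above 61.5% of all genes (Fasn, 20 peaks) to above 93.5% (Acaca, 58 peaks).

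**Figure D1:**
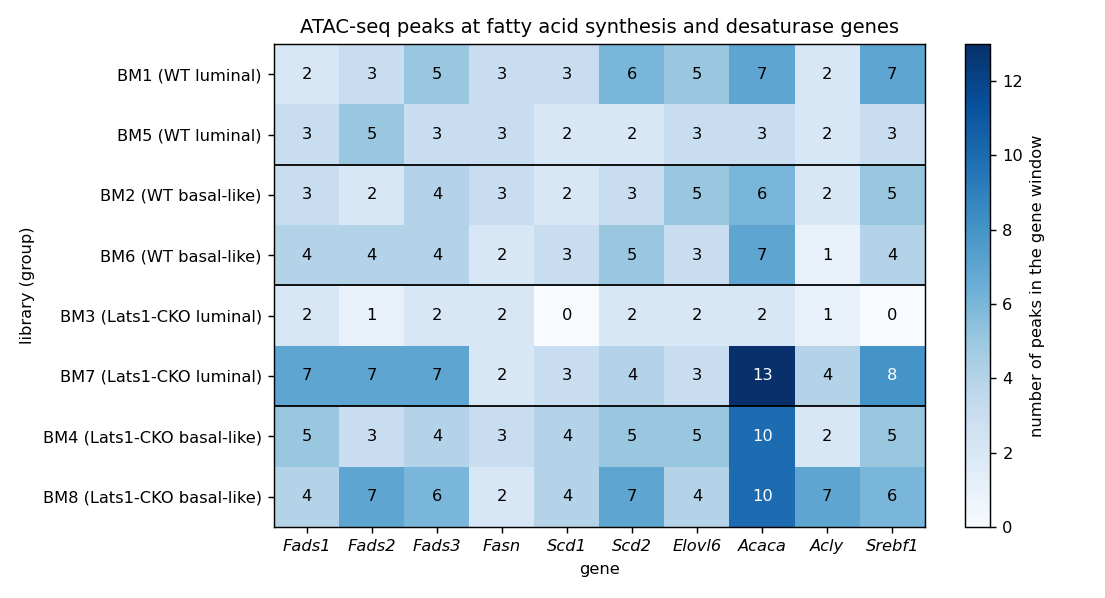
Number of ATAC-seq peaks in the window of each of the 10 genes (columns) in each of the 8 libraries (rows, 2 per group, groups separated by lines). BM3 has 0 to 2 peaks at every gene, and the highest number is 13, at Acaca in BM7.

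For the difference between genotypes, a gene was counted when all 4 Lats1-CKO libraries lay above, or all below, the 4 WT libraries. Of the 10 genes, 0 did so in the number of peaks (0.0225% of all genes higher and 0.0676% lower) and 0 in the percentile of the strongest peak (0.377% higher and 0.648% lower). Between the 4 basal-like and the 4 luminal libraries the counts were also 0, with 0.253% of all genes higher in number, 0.980% higher in percentile and 0.175% lower in percentile. With shares this small, 0 of 10 does not set these genes apart from other genes. In number of peaks, BM3 was at or below the lowest WT library at each of the 10. In percentile it was the lowest library or had no peak at each. None could therefore be higher in Lats1-CKO in either measure. The two-sided exact permutation p of each gene lay between 0.143 and 1, where 4 libraries against 4 allow 0.0286 at the least, and the Benjamini-Hochberg adjusted p over all genes was 1 for every gene tested. At an unadjusted p under 0.05 there were 16 and 182 genes of the 17758 for number and percentile between genotypes, and 45 and 205 between populations, with none of the 10 among them.

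Without BM3, Acaca was the 1 gene of the 10 with more peaks in each of BM4, BM7 and BM8 than in each WT library, where 9.97% of all genes did the same. Fads1, Fads3 and Acly had a higher strongest percentile in these 3 libraries than in any WT library, 3 of 10 genes against 12.6% of all genes. Both counts rest on lists of unequal length. Among the 14753 top-scoring peaks per library, and again without BM3, 0 genes separated in number or in percentile. Per 10000 peaks Acaca overlapped, and the 1 gene that separated was Fasn, lower in Lats1-CKO. The share of all genes was not computed under these settings, so the call of Fasn has no background beside it. Within the basal-like libraries, 2 against 2, Scd1 and Acaca had more peaks in Lats1-CKO (24.0% of all genes), and Fads1, Fads2, Fads3, Scd2, Acaca and Acly had a higher strongest percentile (34.3%). Within the luminal libraries Fasn had fewer peaks in Lats1-CKO (4.09%), and 0 genes had a lower strongest percentile in both Lats1-CKO libraries (12.7%). With 2 libraries against 2 the smallest p is 0.333, so these counts within a population were not tested.

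The peaks at the 10 genes summed to 43 and 29 in WT luminal (BM1, BM5), 35 and 37 in WT basal-like (BM2, BM6), 14 and 58 in Lats1-CKO luminal (BM3, BM7), and 46 and 57 in Lats1-CKO basal-like (BM4, BM8). The mean difference was thus 15.5 peaks in basal-like cells, with both Lats1-CKO libraries above both WT libraries, and 0 in luminal cells, whose Lats1-CKO libraries lay on either side of WT. Libraries with longer lists mostly had higher sums, but not in each case (BM6, with the shortest WT list, had more than BM2 and BM5). Per 10000 peaks of the library they were 5.92 and 4.93, 4.97 and 7.18, 9.49 and 6.21, and 5.33 and 5.76 in the same order, and the basal-like difference changed sign to -0.533. Among the 14753 top-scoring peaks per library, as many as BM3 has, the 10 genes held 10 and 14 (WT luminal), 11 and 15 (WT basal-like), 14 and 16 (Lats1-CKO luminal) and 14 and 17 (Lats1-CKO basal-like), and the genotypes overlapped at 14 and 15.

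**Figure D2:**
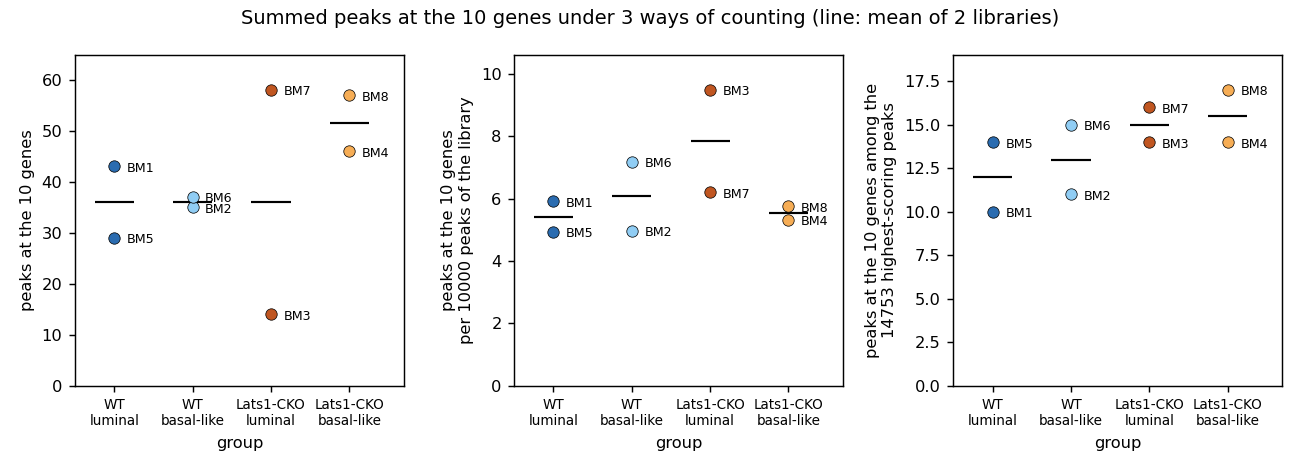
Peaks summed over the 10 genes in each library (points) by group, as called, per 10000 peaks of the library, and among the 14753 top-scoring peaks, with a line at the mean of the 2 libraries. BM3 is lowest as called (14) and highest per 10000 peaks (9.49).

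The regulator Srebf1 (ENSMUSG00000020538, chromosome 11 of GRCm38, 60199089 to 60222581, minus strand) had 7 and 3 peaks in WT luminal, 5 and 4 in WT basal-like, 0 and 8 in Lats1-CKO luminal and 5 and 6 in Lats1-CKO basal-like libraries. No peak was called over its most upstream TSS in any library. The region over an internal TSS, 12.1 kb into the gene and overlapping a coding exon, had a peak in the 7 libraries other than BM3, at percentiles 86.6 (BM1), 56.2 (BM5), 83.9 (BM2), 50.5 (BM6), 81.9 (BM7), 48.1 (BM4) and 78.0 (BM8). A second TSS region, 1.92 kb into the gene, was called in BM1, BM2, BM4 and BM7. An intronic region 9.20 kb into the gene was high in BM7 (87.4) and BM8 (96.2), at 21.3 to 70.7 in the 4 WT libraries, and absent from BM3 and BM4. Among the 10 genes Srebf1 had the widest spread of the strongest percentile in WT libraries (SD 16.4, n = 4), from 50.5 in BM6 to 86.6 in BM1.

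Acly (ENSMUSG00000020917, chromosome 11, 100476353 to 100528000, minus strand), the ATP citrate lyase, was open at its promoter in all 8 libraries. That region had percentiles of 93.8 and 89.9 in WT luminal, 92.9 and 86.0 in WT basal-like, 79.0 and 94.9 in Lats1-CKO luminal and 95.6 and 93.9 in Lats1-CKO basal-like libraries. The WT values and those of BM4, BM7 and BM8 were adjacent without overlap, with 93.8 in BM1 and 93.9 in BM8. Without BM3 the mean was 94.8 ± 0.860 (SD, n = 3) in Lats1-CKO and 90.6 ± 3.52 (SD, n = 4) in WT (exact permutation test, p = 0.114), and among equal numbers of peaks the libraries overlapped, with 58.9 in BM8 and 69.3 in BM1. Its further peaks were mostly in Lats1-CKO libraries, so that it had 1 or 2 peaks in WT and 1, 4, 2 and 7 in BM3, BM7, BM4 and BM8. A region 3.46 kb into the gene was called in BM4 (82.6) and BM8 (12.5) and in no WT library.

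Acaca (ENSMUSG00000020532, chromosome 11, 84129672 to 84401651, plus strand), the acetyl-CoA carboxylase of the cytosol, had the widest window and the most peaks. It had 7 and 3 peaks in WT luminal, 6 and 7 in WT basal-like, 2 and 13 in Lats1-CKO luminal, and 10 and 10 in Lats1-CKO basal-like libraries. The mean was 8.75 ± 4.72 (SD, n = 4) in Lats1-CKO and 5.75 ± 1.89 (SD, n = 4) in WT (exact permutation test, p = 0.314). Without BM3 it was 11 ± 1.73 (SD, n = 3) in Lats1-CKO (p = 0.0286, the smallest possible, exact permutation test, and 0.335 after Benjamini-Hochberg adjustment over all genes). This separation was lost among equal numbers of peaks, with 2 peaks in each of BM4, BM7 and BM8 and in BM6, and 1 in the other WT libraries, and per 10000 peaks, with 1.36 in BM6 against 1.16 in BM4 and 1.01 in BM8.

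Acaca has 8 TSSs in GENCODE, and 2 of its regions covered a TSS. The internal region, 50.0 kb into the gene, was open in all 8 libraries at percentiles 78.2 (BM3) to 95.1 (BM1 and BM4). The upstream region, at the start that Acaca shares with the divergent gene Tada2a, had a peak in 7 libraries and none in BM3, at 22.3 (BM2) to 82.9 (BM4). It ranked below the internal region in each of these libraries. No region covered the RefSeq promoter farther into the gene (84195188 to 84195487), and the nearest, 65.3 kb into the gene, was called in BM8 alone (43.3). A region 68.5 kb into the gene, in an intron, reached 97.8 in BM8, 94.7 in BM7, 92.4 in BM6, 68.0 in BM4 and 63.8 in BM1, and was absent from BM2, BM3 and BM5. It was thus called in both genotypes, and in both populations.

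Fasn (ENSMUSG00000025153, chromosome 11, 120805846 to 120824547, minus strand), the fatty acid synthase, had few peaks, 3 in BM1, BM2, BM4 and BM5 and 2 in the others. Its promoter region was the widest of all 84, at 934 bp, and was open in all 8 libraries. The percentile there was 98.2 and 86.1 in WT luminal, 93.2 and 85.5 in WT basal-like, 76.3 and 92.8 in Lats1-CKO luminal, and 80.3 and 92.2 in Lats1-CKO basal-like libraries. The mean was 85.4 ± 8.35 (SD, n = 4) in Lats1-CKO and 90.7 ± 6.05 (SD, n = 4) in WT, and the groups overlapped (exact permutation test, p = 0.371). BM4 was below each WT library here, and above each of them in strongest percentile at Acly, Scd2, Fads1, Fads2 and Fads3. Among the 14753 top-scoring peaks per library Fasn had a peak in all libraries but BM4.

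Elovl6 (ENSMUSG00000041220, chromosome 3, 129532355 to 129638495, plus strand), which lengthens palmitate to stearate, had the strongest peak of the set in each of the 8 libraries, and it was not at a TSS of Elovl6. That region, 4.00 kb into the gene in an intron (129536186 to 129536525), had percentiles of 99.6 and 99.3 in WT luminal, 99.6 and 98.6 in WT basal-like, 97.6 and 99.8 in Lats1-CKO luminal and 98.4 and 99.4 in Lats1-CKO basal-like libraries. It stayed at 97.6 in BM3, where the median gene was at 10.6 (genes without a peak entered as 0), and at 90.4 to 98.7 among equal numbers of peaks. The means of the genotypes, 98.8 ± 0.998 and 99.3 ± 0.480 (SD, n = 4 each), did not separate (exact permutation test, p = 0.486). The first TSS of Elovl6 had a weaker region, at 37.0 to 67.5 in 6 libraries and absent from BM3 and BM5. The window also holds starts of the antisense gene Gm35986 and of Gm43072. Their distance from the region at 4.00 kb was not computed. A more distal intronic region, 56.6 kb into the gene, was also called in all 8 libraries, and its percentile ranged more widely, at 96.7, 94.9, 98.7 and 47.1 in BM1, BM5, BM2 and BM6, and at 21.3, 60.5, 97.0 and 89.2 in BM3, BM7, BM4 and BM8.

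**Figure D3:**
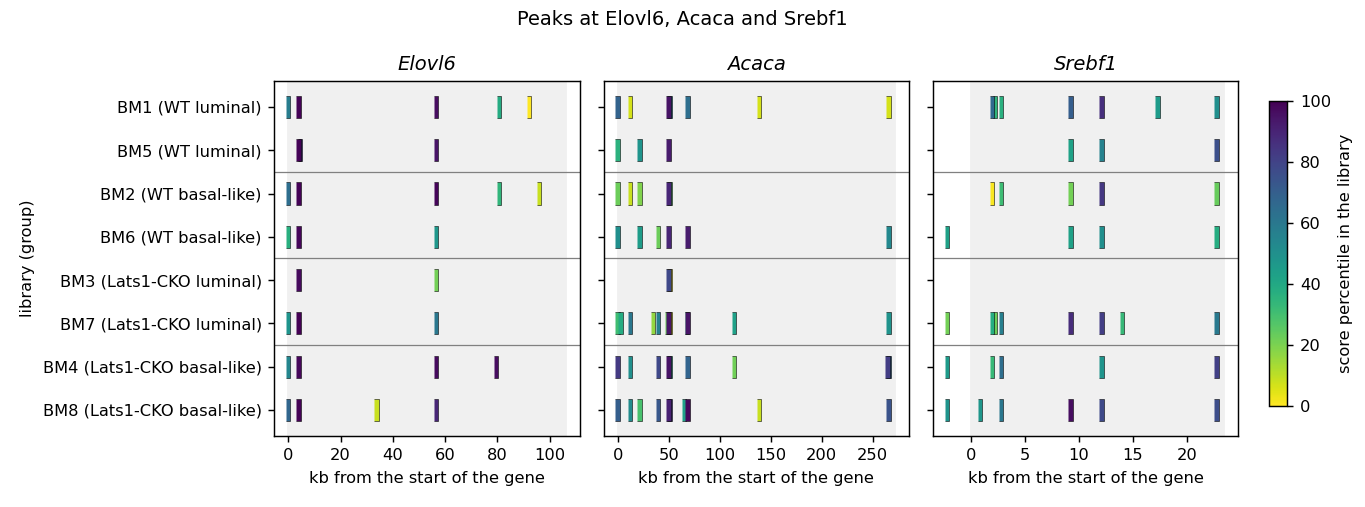
Regions with a peak at Elovl6, Acaca and Srebf1 in each library (rows), placed by distance from the start of the gene in kb along its strand, with the gene body in gray and the colour giving the score percentile of the peak in its library. The Elovl6 region at 4.00 kb is dark in every row (97.6 or above), and no mark lies over the start of Srebf1.

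Scd1 (ENSMUSG00000037071, chromosome 19, 44394455 to 44407879, minus strand), a stearoyl-CoA desaturase, was open over its TSS in the 7 libraries other than BM3. The percentile was 92.2 and 83.0 in WT luminal, 72.4 and 78.9 in WT basal-like, 91.7 in BM7, and 83.2 and 85.5 in Lats1-CKO basal-like libraries. An upstream region centred at -491 bp from the start, the Scd1 stretch above with its CCAAT and ATTGG, had a peak in the same 7 libraries at 55.5 (BM5) to 92.8 (BM8). It ranked above the TSS region in BM2, BM6 and BM8 and below it in the others. Scd1 had 3 and 2 peaks in WT luminal, 2 and 3 in WT basal-like, 0 and 3 in Lats1-CKO luminal and 4 and 4 in Lats1-CKO basal-like libraries (4 against 4, exact permutation test, p = 1).

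Scd2 (ENSMUSG00000025203, chromosome 19, 44293674 to 44306864, plus strand) encodes another stearoyl-CoA desaturase. Its TSS region was called in all 8 libraries, at 91.1 and 83.3 in WT luminal, 85.2 and 89.2 in WT basal-like, 43.9 and 89.2 in Lats1-CKO luminal and 95.9 and 91.3 in Lats1-CKO basal-like libraries. An intronic region 2.24 kb into the gene was called in the 7 libraries other than BM3 and was highest in BM7 (87.7) and BM8 (87.2), with 40.9 to 73.5 in WT and 71.4 in BM4.

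The 3 Fads genes lie side by side on chromosome 19. Fads1 (ENSMUSG00000010663, 10182888 to 10196877, plus strand), the later desaturase of polyunsaturated fatty acid synthesis, had 2 and 3 peaks in WT luminal, 3 and 4 in WT basal-like, 2 and 7 in Lats1-CKO luminal and 5 and 4 in Lats1-CKO basal-like libraries. The means were 4.50 ± 2.08 in Lats1-CKO and 3 ± 0.816 in WT (SD, n = 4 each), within the spread of the libraries (exact permutation test, p = 0.343). Its promoter was open in all 8 libraries, at 77.1 and 78.3 in WT luminal, 70.6 and 80.7 in WT basal-like, 8.28 and 77.0 in Lats1-CKO luminal and 94.4 and 80.7 in Lats1-CKO basal-like libraries. At the promoter BM4 was thus above the WT libraries, and BM7 and BM8 were not.

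The higher strongest percentile of Fads1 in BM7 and BM8 came from another region, 12.5 kb into the gene and overlapping an annotated UTR. It was called in BM7 (88.6), BM8 (89.7) and BM4 (71.9) and in 1 WT library, BM6 (70.4). Counting the whole window, the strongest percentile without BM3 was 90.9 ± 3.06 (SD, n = 3) in Lats1-CKO and 76.7 ± 4.35 (SD, n = 4) in WT (p = 0.0286, the smallest possible, exact permutation test, and 0.497 after Benjamini-Hochberg adjustment over all genes). Among equal numbers of peaks this separation was lost, with 27.7 in BM7, 31.0 in BM8 and 67.0 in BM4 beside 32.8 in BM6. With BM3 the means were 70.2 ± 41.4 and 76.7 ± 4.35 (SD, n = 4 each, exact permutation test, p = 1), and the direction was the opposite. An intronic region 1.44 kb from the start, whose sequence is given above, was called in BM4 (52.0) and BM7 (54.4) and in no WT library. An intronic region 8.09 kb from the start was called in all 8 libraries, at 64.5 or below.

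Fads2 (ENSMUSG00000024665, 10062765 to 10101746, minus strand), the first desaturase of that route, had 3 and 5 peaks in WT luminal, 2 and 4 in WT basal-like, 1 and 7 in Lats1-CKO luminal and 3 and 7 in Lats1-CKO basal-like libraries. Its promoter region was called in all 8 libraries at 55.6 (BM3) to 95.7 (BM4). Deeper in the gene, BM7 and BM8 had peaks that the other libraries lacked. A region 23.1 kb from the start, whose sequence is given above, was at 82.9 in BM7 and 96.5 in BM8, and regions at 28.3 kb (50.0 and 48.7) and 30.4 kb (29.1 and 3.67) were called in the same 2 libraries alone. BM4, the other Lats1-CKO library with a long list, had none of the 3, and a weak peak at 23.9 kb (17.9) instead. A region 14.5 kb from the start was also highest in BM7 (89.7) and BM8 (89.9), with 62.0 in BM6 and 15.4 in BM1, and BM5 had a separate weak peak (8.20) at 14.3 kb.

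Fads3 (ENSMUSG00000024664, 10041569 to 10060110, plus strand), the remaining gene of the family, had 5 and 3 peaks in WT luminal, 4 and 4 in WT basal-like, 2 and 7 in Lats1-CKO luminal and 4 and 6 in Lats1-CKO basal-like libraries. The region that was called in all 8 libraries was intronic, 2.31 kb from the start, at 81.5 and 75.0, 83.7 and 87.4, 48.0 and 95.6, and 82.9 and 90.2 in the 4 groups in the same order. The region over its first TSS was weaker, at 19.0 to 81.7 in 7 libraries and absent from BM5. Without BM3, the strongest percentile in the window was 91.3 ± 3.89 (SD, n = 3) in Lats1-CKO and 83.2 ± 3.11 (SD, n = 4) in WT (exact permutation test, p = 0.0571), and among equal numbers of peaks they overlapped, with 30.2 in BM4 and 55.9 in BM6.

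**Figure D4:**
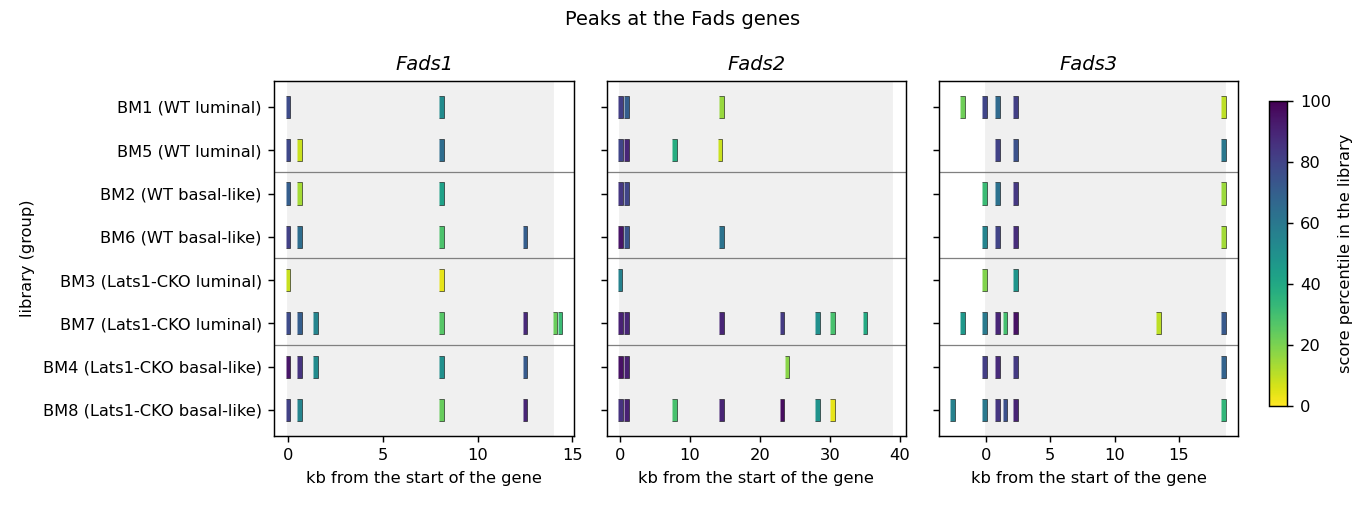
Regions with a peak at Fads1, Fads2 and Fads3 in each library (rows), placed by distance from the start of the gene in kb along its strand, with the gene body in gray and the colour giving the score percentile. The marks at 23.1, 28.3 and 30.4 kb of Fads2 are in BM7 and BM8 alone, and the Fads1 mark at 12.5 kb is in BM4, BM6, BM7 and BM8.

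Across the set, BM3 had the lowest strongest percentile at each gene, or no peak, among all peaks. Among equal numbers of peaks its place turned at some genes, and it was the highest library at Acly (79.0) and below a single other library at Acaca (78.2) and Fasn (76.3). Among all peaks at Elovl6 it was near the others, with the 8 libraries between 97.6 and 99.8. Among equal numbers of peaks Fads1 had no peak in BM1 and BM2 and percentiles of 8.28 to 67.0 in the others.

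**Figure D5:**
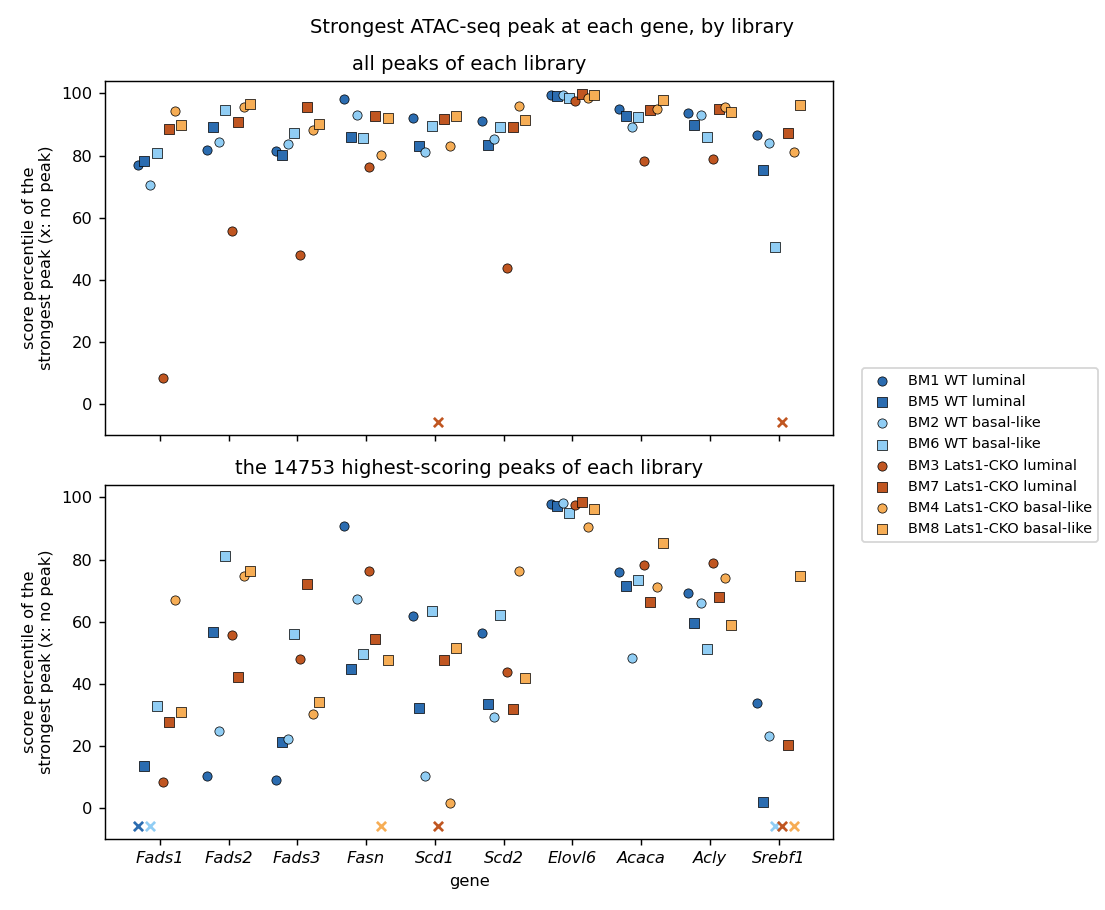
Score percentile of the strongest peak in the window of each gene, for each library (points, colour by group, crosses for no peak), among all peaks (top) and among the 14753 top-scoring peaks per library (bottom). In the top panel BM3 is the lowest point at each gene or has no peak, and at Elovl6 all points lie at or above 97.6.

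Of the 84 regions, 51 were intronic, 18 overlapped a UTR, 7 a coding exon and 1 an exon of a non-coding transcript, 5 lay upstream and 2 downstream. 14 regions covered a TSS of their gene, and each of the 10 genes had at least 1. A peak in all 8 libraries was found at 10 of the 84 regions (11.9%, against 5.95% of all regions), of which 6 were the TSS regions of Fads1, Fads2, Fasn, Scd2, Acaca and Acly and the others the distal regions of Fads1, Fads3 and Elovl6. A further 9 regions had a peak in the 7 libraries other than BM3 (10.7%, against 6.60%). Within 1 kb of a TSS of their gene, 13 of 29 regions were called in 7 or 8 libraries (44.8%, against 35.2% of all regions within 1 kb of a TSS). 27 regions were called in a single library (32.1%, against 44.5%).

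By genotype, 29 regions had a peak in at least 1 Lats1-CKO library and in no WT library (34.5%, against 39.2% of all regions), and 8 had one in at least 1 WT library and in no Lats1-CKO library (9.52%, against 16.5%). These are shares near or below the background. A peak in BM4, BM7 and BM8 and in no WT library was found at 0 of the 84 regions (1.50% of all regions), and a peak in all 4 WT libraries and in none of BM4, BM7 and BM8 also at 0 (0.0661%). A peak in BM7 and BM8 alone, a pattern chosen after the values were seen, was found at 5 regions, 3 of Fads2 and 1 each of Fads3 and Acly (5.95%, against 4.32%). BM7 and BM8 are of different sorted populations and have the longest lists.

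Sequence motifs were counted in the central 200 bases of every region on both strands, and a match is a description of the letters alone. CCAAT was in 29 of the 84 regions (34.5%, against 23.7% of all regions) and the GC box GGGCGG in 13 (15.5%, against 10.6%). The E-box CACGTG, which SREBP1 can also bind, was in 3 (3.57%, against 3.77%), and TCACNCCAC was in 1, the Elovl6 intronic region (1.19%, against 0.983%). The AP-1 element TGANTCA was in 13 (15.5%, against 26.1%) and GGAATG, the core of the TEAD sites through which the Hippo pathway acts, in 10 (11.9%, against 15.8%). The median GC content of these bases was 53.5% at the 10 genes and 49.5% over all regions. The sets also differed in position, with 29 of the 84 regions within 1 kb of a TSS, against 29077 of all 183173. Motif shares were not compared at like distances from a TSS. The part of position in the differences, higher or lower, was therefore not tested. The RefSeq promoter table held 9 promoters of 7 of the genes, and CCAAT was in 5 of the 9 (Fads3, Fasn, Acly and Srebf1), against 37.4% of all promoters of 300 bases. The GC box was also in 5 of the 9 (35.7% of all promoters). Neither motif of SREBPs was in any of the 9, with CACGTG in 7.15% and TCACNCCAC in 1.24% of all promoters. TGANTCA (7.81%) and GGAATG (14.7%) were in 0 of the 9 as well. It held no promoter of Fads1, Scd1 or Scd2, whose motifs were counted only in their accessible regions.

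A list of 48 other genes of lipid synthesis was counted in the same manner. Between 4 and 4 libraries, 0 of the 48 separated the genotypes in number or percentile. Between populations 0 did so in number, and 2 were higher in percentile in basal-like cells, beside 0.980% of all genes. They were Mlxipl, which encodes the carbohydrate-responsive factor ChREBP (28.5 to 65.8 in luminal libraries with a peak, none in BM3, and 66.1 to 89.5 in basal-like ones), and Gpam, which starts glycerolipid synthesis (33.2 and 37.7 in BM7 and BM1, none in BM3 and BM5, and 50.0 to 67.8 in basal-like ones). Without BM3, 6 of the 48 had more peaks in Lats1-CKO and 3 a higher strongest percentile, beside the 9.97% and 12.6% of all genes given above. Peaks at the list summed to 112 to 156 in WT libraries, 170 to 203 in BM4, BM7 and BM8, with 49 in BM3.

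Of 19 genes that mark other cell types, 0 separated the genotypes or the populations, 4 against 4. Their summed peaks were higher in the 3 longest lists, as a description. Peaks at 5 adipocyte genes summed to 2 to 5 in WT libraries and 8 to 10 in BM4, BM7 and BM8, and those at 5 fibroblast genes to 6 to 9 and 10 to 15. The sums were 0 to 5 and 7 to 12 at 5 immune genes, and 6 to 11 and 12 to 17 at 4 endothelial genes, with 0 to 1 in BM3 for each of these lists. Single genes went different ways, with peaks at Adipoq in BM4 and BM8 alone, at Kdr in BM1, BM2, BM4 and BM5 and not in BM7 or BM8, and at Lum and Cd79a in no library, while Pdgfra, Pecam1 and Tek had peaks in each WT library. The part of other cells in the values above was not tested.

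Against the labelled populations, 10, 9, 9 and 4 of 10 luminal genes were called within 1 kb of a TSS in the luminal libraries BM1, BM5, BM7 and BM3, and 9, 7, 6 and 6 in the basal-like libraries BM2, BM6, BM4 and BM8. Of 8 basal-like genes, 3 to 6 had one in luminal and 4 in each basal-like library. Neither list separated the populations in any gene, 4 against 4, and 2 luminal genes, Krt8 and Krt18, had a lower strongest percentile in all 4 Lats1-CKO than in all 4 WT libraries (0.648% of all genes).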

How the data were processed

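The authors made 8 ATAC-seq libraries from sorted and cultured PyMT mammary tumor cells, 2 for each of 4 groups. Per the study's methods, adapters were removed with cutadapt, and uniquely aligned reads (bowtie, mm10, that is GRCm38) were cleared of mitochondrial reads, duplicates and long fragments before peaks were called with MACS2 and the ENCODE blacklist was removed. The version of MACS2 is 2.1.1.20160309 in the submitters' processing notes and differs in the methods, and its options are not given in the sources used here. The authors deposited 1 peak list per library, in which each peak has a position and a score of at least 13 that is not normalized between libraries. The score was taken from its values to be that of MACS2, 10 times the −log10 q. 1 Lats1-CKO luminal replicate, not named, was discarded by the authors when tracks were merged, and both are kept here. The lists hold no read counts, so counting error has no interval here and the comparison of read counts made with DiffBind was not repeated.

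Peaks were assigned to a gene by any overlap with its body or the 5 kb around its GENCODE M21 TSSs, and peaks of the 8 libraries that overlapped were merged into regions. Percentiles were ranks of scores within a library, and a gene without a peak was given the value 0 in tests, means and medians. The 17758 protein-coding genes with at least 1 peak were tested with 4 libraries against 4 by exact permutation (two-sided, 70 arrangements), with Benjamini-Hochberg adjustment over all genes, and by whether the groups overlapped. Libraries were permuted without regard to the other label. The spread within a genotype thus includes any difference between sorted populations, and the reverse. Motifs were counted in the central 200 bases of each region of GRCm38.p6 and in RefSeq promoters of 300 bases. Matplotlib 3.10.9, pysam 0.24.0, scipy 1.17.1, pandas 2.3.3, numpy 2.4.6 and Python 3.11.15 were used, and counts, separation and tests were tested on simulated data.

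The 10 genes and the lists of 48 lipid genes and of luminal, basal-like, adipocyte, fibroblast, immune and endothelial markers were chosen with earlier results of these data known. The genes named beyond the 10 are Lats1, the marker genes, genes whose start lies in a window, and listed lipid genes whose 4 and 4 libraries do not overlap. Alternatives were equal numbers of peaks per library, peaks above the median score, peaks per 10000, narrower windows, peak midpoints and each library left out in turn.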

Additional observations from a re-analysis of the deposited data

Results flagged for a closer look

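Dixon's ratio was computed within each genotype, 4 libraries each, for the summed peaks and for each gene's number of peaks and strongest percentile. In 11 of 42 groups a library lay beyond the 95% critical value of the ratio. The groups share the same 8 libraries and hold tied counts and absent peaks entered as 0. The usual rate of 1 in 20 therefore does not apply to them. In 8 of the 11 the library was BM3, which has the shortest list. Its strongest percentile was 8.28 at Fads1 (88.6 to 94.4 in the other Lats1-CKO libraries), 55.6 at Fads2 (90.9 to 96.5), 48.0 at Fads3 (88.1 to 95.6), 43.9 at Scd2 (89.2 to 95.9), 78.2 at Acaca (94.7 to 97.8) and 79.0 at Acly (93.9 to 95.6). At Scd1 (83.2 to 92.8) and Srebf1 (81.1 to 96.2) BM3 had no peak, entered as 0. The other 3 were single steps in small numbers of peaks. Acly had 1 peak in BM6 and 2 in each other WT library, Fasn had 2 in BM6 and 3 in each other WT library, and Fasn had 3 in BM4 and 2 in each other Lats1-CKO library.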

How the results depend on the processing

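No paired analysis was possible because the labels name the libraries BM1 to BM8 without a replicate number, and the replicate numbers used here follow accession order and pair nothing. Under the 6 other ways of counting peaks, the number of genes that separated 4 and 4 libraries stayed 0 for genotype and for population, in number and, for the 5 that apply, in percentile. Shares of all genes under these 6 ways were not computed, and as called they were at most 0.980% in any 1 direction. Leaving out each library in turn gave 0 to 1 genes for number and 0 to 3 for percentile between genotypes, with Acaca and with Fads1, Fads3 and Acly when BM3 was left out. With BM3 left out, a setting added after the data were seen gave 0 and 0 genes among equal numbers of peaks, and 1 for number per 10000 peaks (Fasn, lower). Between populations, leaving out each library in turn gave 0 for number and 0 to 1 for percentile (Fads2 without BM2, Fads3 without BM7). Of all settings with a library left out, the share of all genes was computed only between genotypes without BM3, with the lists as called. The other counts, that of Fasn included, have no background.

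The basal-like difference of 15.5 summed peaks fell to 2.50 among equal numbers of peaks and to 9.50 with 5 kb around TSSs alone, and was -0.533 per 10000 peaks. Leaving out libraries gave 10 (without BM8) to 21 (without BM4). The luminal difference of 0 became 2.42 per 10000 peaks, and ran from -22 (without BM7) to 22 (without BM3). Regions with a peak in BM4, BM7 and BM8 and in no WT library numbered 2 among peaks above the median score, and 0 to 5 with libraries left out. There were 5 without BM4, 3 without BM6, 2 without BM8 and 1 without BM7. A library left out was also dropped from the pattern, so that without BM4 only BM7 and BM8 needed a peak. Regions called in the 4 WT libraries and in none of BM4, BM7 and BM8 stayed at 0 under each setting. The shares of all regions were computed only for the full patterns with all peaks, so these counts have no background. Equal numbers of peaks hold fewer peaks at the 10 genes by construction, and otherwise the cause was not tested. Depth per library is unknown, and outside BM3 the Lats1-CKO lists are all longer than the WT lists, so genotype and list length cannot be told apart.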

Other observations

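The genes whose numbers of peaks over the 8 libraries were most like those of Fads1, among protein-coding genes more than 100 kb away, were Abca13 (Pearson r = 0.971), Hal (0.969) and Slc25a28 (0.968). There were 102 genes with r above 0.9, and all of these values share the lengths of the 8 lists.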
